A study of Mus musculus with 12 samples.

Results

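MAP kinase and EGF receptor feedback inhibitors were examined in mouse hippocampus 1 hour after kainate. The set named 9 genes: Dusp1, Dusp2, Dusp6, Dusp14, Dusp16, Errfi1, Spry1, Spry2 and Spry4. Their probe sets were found by gene symbol, through the platform annotation. Probe sets annotated with exactly 1 symbol were found for 6 of the 9 genes, as 9 of the 12422 probe sets tested. Of the 12422, 10833 had exactly 1 symbol, and these cover 8251 genes. Dusp1, Dusp2 and Spry4 had 1 probe set each, and Dusp6, Dusp16 and Errfi1 had 2 each. Dusp14, Spry1 and Spry2 had none and were not analysed here.

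Total RNA was hybridised to Affymetrix MG-U74A arrays, 12 in total. Each of 4 groups had 3: mutants given kainate, mutants given saline, controls given kainate and controls given saline. In the mutants CREB and CREM, both transcription factors, were lost, per the series title. The labels call the other animals controls, give them no allele names, and do not say how, or in which cells, the 2 genes were disrupted. Kainate, an agonist of ionotropic glutamate receptors that provokes seizures, was injected intraperitoneally at 20 mg/kg. The animals were littermates of both sexes, 5 to 6 weeks old, housed singly and handled for 5 days. Every array carried pooled RNA of 3 animals, so that a group rests on 9 animals and the pool is the unit of replication. All values below are log2 levels as deposited, and a difference of 1 is a doubling.

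In resting neurons the ERK branch of the MAP kinase pathway is held low, and synaptic glutamate or growth factors switch it on through Ras, Raf and MEK. ERK then enters the nucleus and induces immediate early genes, and among these are genes whose products switch the pathway off again. Dual-specificity phosphatases (Dusp genes) remove phosphate from the activation loop of MAP kinases, Sprouty proteins act between receptor tyrosine kinases and Raf, and Errfi1 (also called Mig6) binds and inhibits the EGF receptor kinase. CREB and CREM bind cAMP response elements in promoters.

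Because the mutation removed factors that bind cAMP response elements, the DNA before the start of each gene was read from RefSeq (GRCm38.p6). Windows of 250 bases upstream of an annotated start were held for 8 of the 9 genes, as 9 windows, since Errfi1 had 2 starts that lie 1274 base pairs apart. Both strands were searched for the full cAMP response element TGACGTCA, its shorter core TGACG, the AP-1 site TGANTCA and the CArG box, which binds serum response factor. A full element contains the core on each strand, and these overlap it. The full element was found in 2 of the 9 windows, those of Dusp1 and of the second Errfi1 start, against 1.55% of all 32851 windows in the table. The core was found in 3 windows, those 2 and Dusp16, against 17.8% of all windows. None of the 9 windows held an AP-1 site (6.75% of all windows) or a CArG box (1.47%). A match of letters is a description and does not show that a factor bound there.

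The sequences of the 3 genes that rose after kainate, with Dusp16 as a gene that did not pass, are given 5′ to 3′ on the strand of the gene, with full elements and cores in capitals.
Dusp1, chr17:26508473-26508722, minus strand: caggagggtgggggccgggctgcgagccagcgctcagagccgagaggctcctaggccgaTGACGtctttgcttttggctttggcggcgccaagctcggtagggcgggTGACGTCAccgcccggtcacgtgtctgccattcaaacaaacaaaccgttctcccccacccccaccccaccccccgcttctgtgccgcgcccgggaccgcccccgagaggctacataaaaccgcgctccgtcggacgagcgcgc
Errfi1, second start, chr4:150854820-150855069, plus strand: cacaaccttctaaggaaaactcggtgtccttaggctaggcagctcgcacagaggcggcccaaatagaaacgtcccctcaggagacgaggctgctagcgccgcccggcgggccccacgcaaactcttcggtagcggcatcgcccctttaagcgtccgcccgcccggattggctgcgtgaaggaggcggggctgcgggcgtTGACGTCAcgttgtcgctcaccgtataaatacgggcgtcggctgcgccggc
Dusp6, chr10:99262981-99263230, plus strand: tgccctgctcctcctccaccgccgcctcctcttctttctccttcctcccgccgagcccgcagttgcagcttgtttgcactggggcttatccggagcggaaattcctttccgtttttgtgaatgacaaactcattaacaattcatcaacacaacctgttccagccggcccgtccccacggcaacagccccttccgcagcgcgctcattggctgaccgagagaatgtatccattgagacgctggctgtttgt
Dusp16, chr6:134792629-134792878, minus strand: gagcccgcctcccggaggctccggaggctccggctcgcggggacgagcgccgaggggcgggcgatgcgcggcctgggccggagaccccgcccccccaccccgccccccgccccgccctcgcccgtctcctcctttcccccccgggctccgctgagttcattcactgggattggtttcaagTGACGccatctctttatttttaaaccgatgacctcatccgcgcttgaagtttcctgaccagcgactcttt
In Dusp1 the full element lay 143 to 136 bases before the start, with a further core at 191 to 187 bases. In Errfi1 it lay 51 to 44 bases before the second start, and in Dusp16 the core lay 70 to 66 bases before the start. The Dusp6 window held none of the 4 motifs, and neither did that of the first Errfi1 start.

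Before the members are described, some features of the arrays bear on them. The middle 50% of values spanned 3.74 log2 units on the control kainate replicate 3 array, and 4.40 to 4.61 on each of the other 11. Neuronal markers were at high levels on every array, with a mean log2 level of 10.40 to 11.01 over 6 genes in mutant kainate, 10.73 to 10.97 in mutant saline, 10.49 to 10.98 in control kainate and 10.77 to 10.99 in control saline arrays. Of 42 measured marker genes of 8 cell types or tissues, none passed in limma for kainate in mutants or in controls (4 in each at an unadjusted p under 0.05). Over all 12422 probe sets 0.298% were called in mutants and 0.33% in controls (780 and 915 at an unadjusted p under 0.05). A count of 0 among 42 is thus near the background. The haemoglobin gene Hba-a1 passed averaged over genotypes (0.53, adjusted p = 0.0372). In that contrast 9 of the 42 had an unadjusted p under 0.05, against 1481 of all probe sets. Tissue RNA was measured, so fewer cells of a type and less RNA per cell cannot be told apart.

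The first question was which feedback inhibitors responded to kainate. Dusp1, Errfi1 and Dusp6 rose in mutants and in controls alike, and Dusp2, Dusp16 and Spry4 did not pass in either. In limma, 3 of the 9 probe sets were higher after kainate in mutants, where 0.266% of all probe sets were called higher (33 of 12422). The same 3 were higher in controls, where 0.282% were called higher (35 of 12422). None of the 9 was called lower, against 0.0322% of all probe sets in mutants and 0.0483% in controls. Over the 9 probe sets the median difference was 0.25 in mutants, against -0.02 over all probe sets there, and 0.28 in controls, against 0.05.

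Dusp1, the phosphatase also known as MKP-1, is a nuclear immediate early gene product that inactivates ERK, p38 and JNK. Its log2 level was 11.02, 11.40 and 11.15 in mutant kainate arrays, against 7.50, 7.53 and 7.59 in mutant saline arrays. In controls it was 10.98, 11.20 and 11.10 after kainate, against 7.50, 7.60 and 7.67 after saline. All 6 kainate arrays lay more than 3 log2 units above all 6 saline arrays, and arrays of a group lay close together. The rise was 12.5-fold in mutants (log2 3.65, SE 0.10, n = 3 pools per group, limma adjusted p = 1.48e-08) and 11.3-fold in controls (log2 3.50, SE 0.10, adjusted p = 1.69e-08). By size it ranked 11th among all probe sets in mutants and 10th in controls.

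Errfi1 encodes the inducible inhibitor of the EGF receptor and its relatives. Its brighter probe set stood at 10.72, 10.85 and 10.74 in mutant kainate arrays, against 8.89, 8.81 and 8.93 in mutant saline arrays. In control arrays it stood at 11.27, 11.17 and 10.92 after kainate, against 8.86, 9.10 and 8.89 after saline. The treatments did not overlap in either genotype. The rise was 3.72-fold in mutants (log2 1.89, SE 0.10, limma adjusted p = 4.23e-06) and 4.50-fold in controls (log2 2.17, SE 0.10, adjusted p = 1.35e-06), ranks 20 and 21 by size.

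Dusp6, or MKP-3, is a cytoplasmic phosphatase with a preference for ERK. Its brighter probe set stood at 10.97, 10.87 and 11.29 in mutant kainate arrays, against 9.84, 9.90 and 9.67 in mutant saline arrays. In control arrays it stood at 11.34, 11.38 and 11.09 after kainate, against 10.18, 9.89 and 9.90 after saline. Again the lowest kainate array lay above the highest saline array of both genotypes. The rise was 2.36-fold in mutants (log2 1.24, SE 0.13, limma adjusted p = 0.00148) and 2.43-fold in controls (log2 1.28, SE 0.13, adjusted p = 0.00104).

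These 3 calls held in both genotypes with each array left out in turn and under each further setting tried that refitted these probe sets. They thus held without the control kainate replicate 3 array, where the control rise was 3.50 for Dusp1, 2.27 for Errfi1 and 1.37 for Dusp6.

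**Figure D1:**
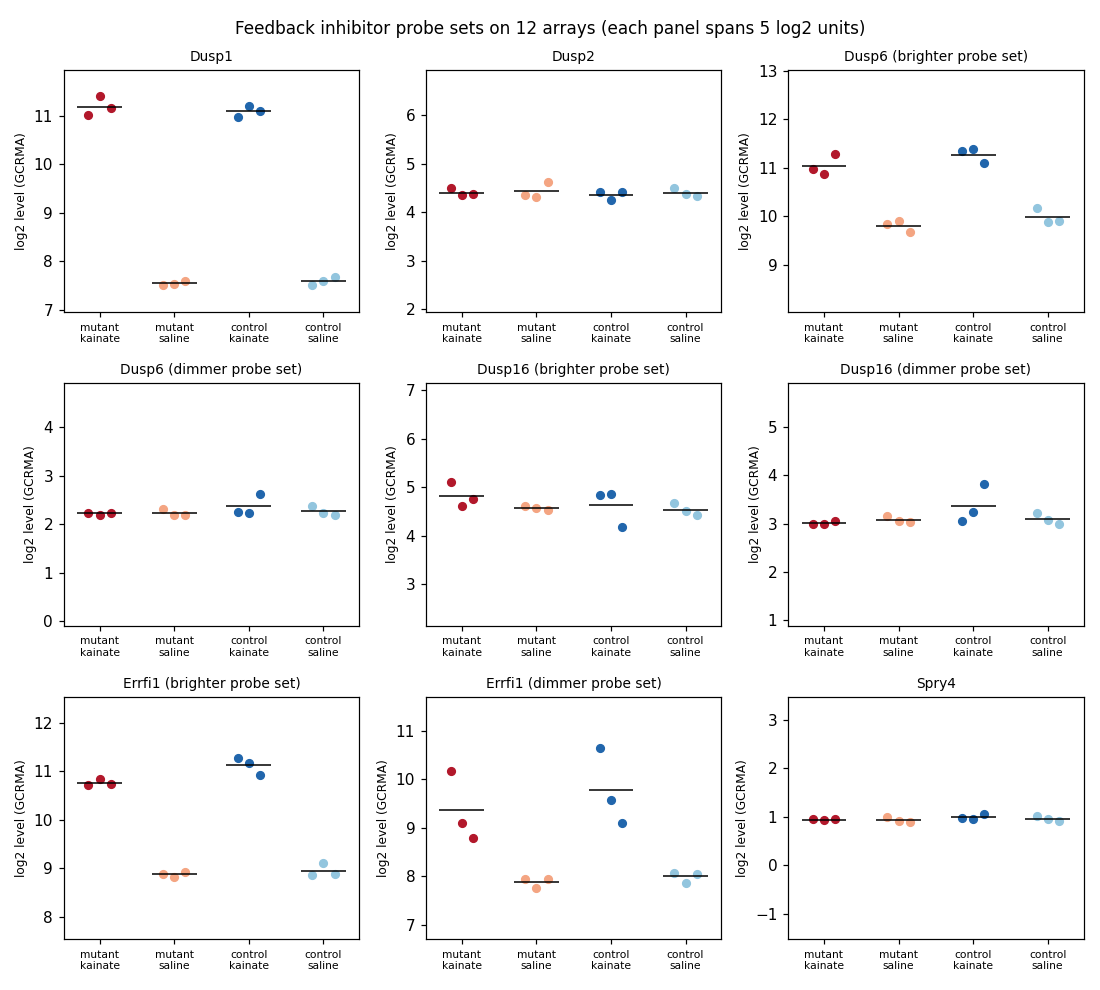
Log2 level of each of the 9 probe sets (vertical axis, 5 log2 units in every panel) on the 12 arrays, by group. Points are arrays (pools of 3 animals) and lines are group means; Dusp1, both Errfi1 probe sets and the brighter Dusp6 probe set separate kainate from saline in both genotypes, and the other 5 do not.

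The dimmer Errfi1 probe set followed the brighter one in direction and spread more widely. It stood at 10.17, 9.10 and 8.79 in mutant kainate arrays, against 7.94, 7.75 and 7.94 in mutant saline arrays. In control arrays it stood at 10.65, 9.56 and 9.09 after kainate, against 8.06, 7.86 and 8.05 after saline. Kainate and saline did not overlap in either genotype, and with this probe set 4 of the 9 had all kainate arrays above all saline arrays, against 4.98% of all probe sets in mutants and 2.29% in controls. In both genotypes the kainate array of replicate 1 was the highest, by about 1 log2 unit, while the 6 saline arrays lay between 7.75 and 8.06.

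The difference of the dimmer Errfi1 probe set was 1.48 in mutants (SE 0.39, limma adjusted p = 0.375) and 1.78 in controls (SE 0.39, adjusted p = 0.183), and neither passed. Averaged over genotypes it was 1.63 (SE 0.28, adjusted p = 0.0231), where 0.531% of all probe sets were called higher and 4 of the 9 were. That averaged call was lost with arrays centred on their medians and in 6 of the fits without 1 array, namely those without mutant saline replicate 2 or 3, mutant kainate replicate 2, control saline replicate 2 or 3, or control kainate replicate 2 (adjusted p 0.0511 to 0.0767). Within replicate 1 kainate minus saline was 2.24 in mutants and 2.59 in controls, within replicate 2 it was 1.34 and 1.69, and within replicate 3 it was 0.86 and 1.04. With the replicate number as a block the adjusted p was 0.074 in mutants and 0.0402 in controls. With replicates 2 and 3 only, the difference was 1.10 in mutants (adjusted p = 0.055) and 1.37 in controls (adjusted p = 0.0322). The brighter probe set did not show this spread: within replicates 1, 2 and 3 its kainate minus saline was 1.84, 2.04 and 1.81 in mutants and 2.41, 2.07 and 2.02 in controls.

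**Figure D2:**
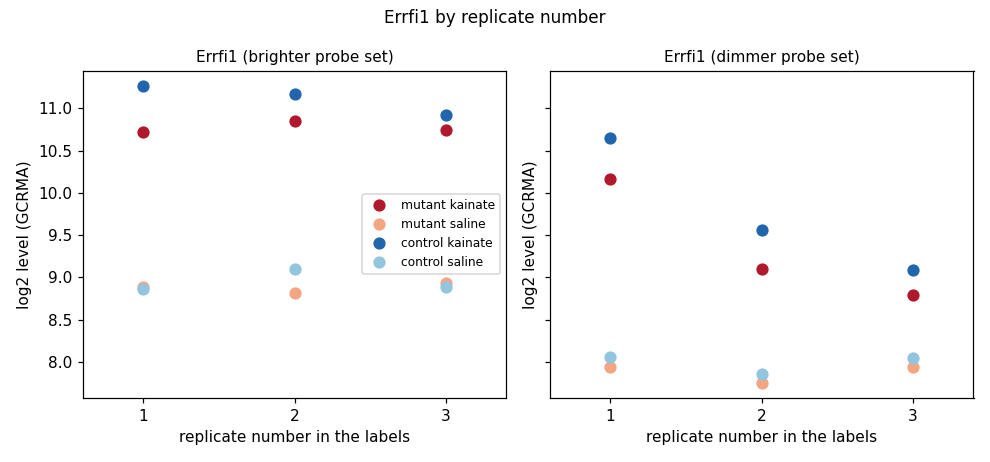
Log2 level of the brighter (left) and dimmer (right) Errfi1 probe set against the replicate number in the labels, 1 point per array, coloured by group. In the dimmer probe set both kainate groups are highest at replicate 1 (10.17 in mutants and 10.65 in controls), and the saline arrays stay between 7.75 and 8.06.

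Among the phosphatases that did not pass, Dusp2 (PAC-1) is a nuclear phosphatase best known from activated lymphocytes. It stood at 4.35 to 4.49 in mutant kainate, 4.32 to 4.63 in mutant saline, 4.25 to 4.42 in control kainate and 4.33 to 4.50 in control saline arrays. The groups overlapped throughout. Its kainate difference was -0.03 in mutants (95% interval -0.25 to 0.19) and -0.04 in controls (-0.26 to 0.18). Changes in signal of more than 0.26 log2 units thus lay outside both intervals. Averaged over the arrays, the Dusp2 probe set ranked at percentile 50.7 of all probe sets, and its signal over background was not measured.

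Dusp16 (MKP-7) is a phosphatase that acts on JNK and p38. Its brighter probe set stood at 5.11, 4.61 and 4.77 in mutant kainate arrays, against 4.62, 4.57 and 4.54 in mutant saline arrays. In control arrays it stood at 4.84, 4.86 and 4.19 after kainate, against 4.68, 4.51 and 4.43 after saline. The groups overlapped in both genotypes, and the lowest value of all was that of control kainate replicate 3, the array with the narrow spread. The difference was 0.25 in mutants (95% interval -0.15 to 0.65, limma adjusted p = 1) and 0.09 in controls (-0.31 to 0.49, adjusted p = 0.788). Without that array the control difference was 0.31 (adjusted p = 0.765).

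The 3 remaining probe sets, the dimmer ones of Dusp6 and Dusp16 and that of Spry4, an inhibitor of receptor signalling to Ras and Raf, read low. Averaged over the arrays, they ranked at percentiles 12.6, 30.8 and 1.59 of all probe sets. The dimmer Dusp16 probe set stood at 3.00, 2.98 and 3.06 in mutant kainate and 3.16, 3.05 and 3.03 in mutant saline arrays. It stood at 3.06, 3.24 and 3.81 in control kainate and 3.22, 3.07 and 2.98 in control saline arrays, so that its highest value came from the array with the narrow spread. The dimmer Dusp6 probe set was also highest there, at 2.63 against 2.19 to 2.38 on the other 11 arrays, and so was Spry4, at 1.06 against 0.90 to 1.02. The kainate difference of Spry4 was 0.01 in mutants (95% interval -0.14 to 0.16) and 0.03 in controls (-0.12 to 0.18). Over the 12 arrays the deviations of these 3 probe sets from their group means correlated at 0.80 to 0.95 (Pearson's r, a description; the arrays are shared). Without the control kainate replicate 3 array the control kainate difference of the dimmer Dusp16 probe set was 0.05 rather than 0.28, and that of the dimmer Dusp6 probe set -0.03 rather than 0.10. The dimmer Dusp6 probe set did not follow the brighter one, with -0.01 in mutants (95% interval -0.25 to 0.23) and 0.10 in controls (-0.14 to 0.34).

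The next question was whether the kainate response differed between mutants and controls. No member passed in limma (0 of 9 also at an unadjusted p under 0.05), nor did any other probe set (0% of 12422 called, with 107 at an unadjusted p under 0.05). For Dusp1 the response in mutants minus that in controls was 0.14 (SE 0.15, 95% interval -0.18 to 0.47, adjusted p = 0.939). For the brighter Dusp6 probe set it was -0.04 (SE 0.19, -0.46 to 0.38, adjusted p = 0.965). For the brighter Errfi1 probe set it was -0.28 (SE 0.15, -0.60 to 0.05, adjusted p = 0.939). These intervals do not show equal responses: they leave room for a mutant response up to 0.18 log2 units smaller for Dusp1, 0.46 for Dusp6 and 0.60 for Errfi1. For the dimmer Errfi1 probe set the difference was -0.30 with an interval of -1.53 to 0.93. It was 0.14 without control kainate replicate 1, and -0.71 without mutant kainate replicate 1. Within replicates 1, 2 and 3 the mutant response of this probe set was the smaller, though the labels name no pairing. It was 2.24 against 2.59 in controls, 1.34 against 1.69, and 0.86 against 1.04. Without the control kainate replicate 3 array, which ended the count of 0 over all probe sets (5 called), the differences were 0.15 for Dusp1 and -0.13 for the brighter Dusp6 probe set, both with adjusted p = 1. That of the brighter Errfi1 probe set was -0.38 (SE 0.11), with an unadjusted p of 0.00784 and an adjusted p of 1 in limma, and it was the 1 member at an unadjusted p under 0.05 in that fit.

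**Figure D3:**
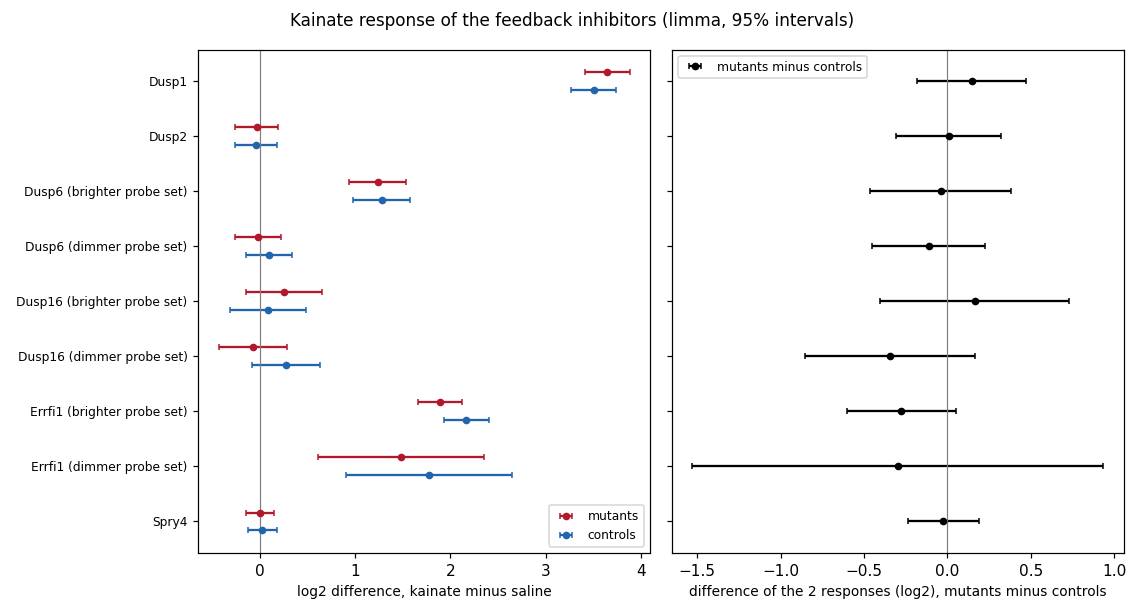
Left, log2 difference between kainate and saline for each probe set in mutants (red) and controls (blue); right, mutant response minus control response. Points are limma estimates from 12 arrays and bars are 95% intervals; Dusp1, Errfi1 and the brighter Dusp6 probe set lie right of 0 in both genotypes, and all 9 intervals of the difference include 0.

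The genotypes were then compared within each treatment. None of the 9 probe sets passed under kainate, where 0.354% of all probe sets were called in either direction, or under saline, where 0.137% were. None passed averaged over treatments either, where 0.612% were called. At an unadjusted p under 0.05 there was 1 of the 9 under kainate, 0 under saline and 1 averaged, the brighter Errfi1 probe set. Of all 12422 probe sets, 616 under kainate, 319 under saline and 743 averaged were at that level, so that 1 of 9 is near the background. After kainate the brighter Errfi1 probe set stood at 10.72, 10.85 and 10.74 in mutants, against 11.27, 11.17 and 10.92 in controls. The 3 mutant arrays lay below the 3 control arrays, a separation in this direction that 4.97% of all probe sets had. The difference was -0.35 (SE 0.10, 95% interval -0.58 to -0.12), with an unadjusted p of 0.00675 and an adjusted p of 0.467 in limma, so that it did not pass. Without the control kainate replicate 3 array it was -0.45 (SE 0.08, limma adjusted p = 0.0958) and did not pass either. Under saline the same probe set differed by -0.08 (SE 0.10, adjusted p = 1) and the groups overlapped. With array weights its difference passed in limma under kainate (-0.46, adjusted p = 0.0394) and under saline (-0.22, adjusted p = 0.0486). That setting called 99 of 12422 probe sets under kainate and 680 under saline, against 44 and 17 in the main fit. Over all settings the adjusted p of this probe set ran from 0.0394 to 0.719 under kainate and from 0.0486 to 1 under saline.

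The dimmer Errfi1 probe set differed by -0.41 between mutants and controls under kainate (95% interval -1.28 to 0.46), with mutant minus control values of -0.47, -0.46 and -0.30 within replicates 1, 2 and 3. Without control kainate replicate 1 the difference was 0.03, and without mutant kainate replicate 1 it was -0.82. Dusp1 differed by 0.10 under kainate (-0.14 to 0.33) and by -0.05 under saline (-0.28 to 0.18). The brighter Dusp6 probe set differed by -0.23 under kainate (-0.53 to 0.07) and by -0.19 under saline (-0.49 to 0.11), with overlapping groups in both. Over all probe sets the median genotype difference was itself below 0, at -0.08 under kainate and -0.03 under saline, and the medians of the 9 were -0.15 and -0.03.

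Markers of microglia differed between the genotypes on the same arrays. Of 8 measured, 6 were higher in mutants under kainate and 4 under saline in limma, with a mean log2 level of 8.57 to 8.84 in mutant kainate against 7.63 to 7.70 in control kainate arrays, and 8.40 to 8.61 in mutant saline against 7.53 to 7.63 in control saline arrays. Averaged over treatments, 7 of the 8 were higher in mutants. Of 6 measured astrocyte markers 1 was higher, Gfap (1.62, limma adjusted p = 0.00554), and the others did not pass. Of 5 measured hippocampal neuron markers 1 was lower, Wfs1 (-1.04, limma adjusted p = 0.0082), and the others did not pass. The 6 measured general neuron markers held no call. The part of these markers in the levels of the feedback inhibitors was not tested.

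**Figure D4:**
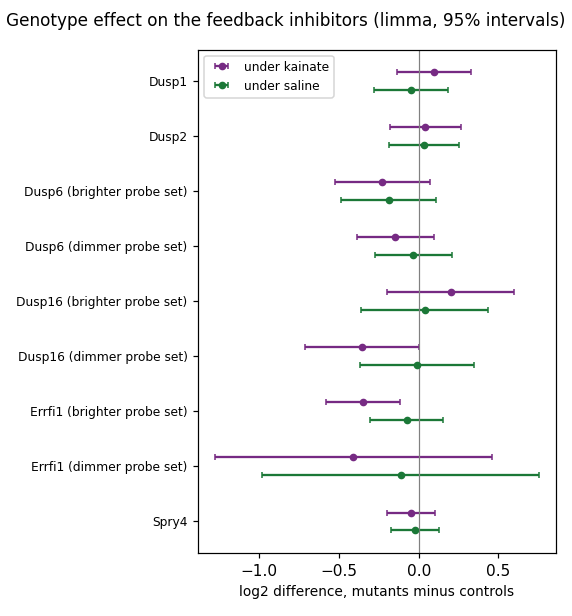
Log2 difference between mutants and controls for each probe set under kainate (purple) and under saline (green). Points are limma estimates and bars are 95% intervals; the interval of the brighter Errfi1 probe set under kainate (-0.58 to -0.12) lies below 0 before adjustment, and no probe set passed after it.

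The rest of the pathway was read through 7 lists of other genes, 119 in all, of which 81 were measured, each by its brightest probe set. None of the 63 genes that carry or restrain the signal passed in limma for kainate in mutants, in controls or averaged over genotypes (5, 6 and 8 at an unadjusted p under 0.05, against 780, 915 and 1481 of all 12422 probe sets). Over all probe sets 0.298% were called in either direction in mutants, 0.33% in controls and 0.942% averaged, so that a count of 0 among 63 is near the background. The 63 comprised 6 of 11 listed EGF family ligands, 11 of 12 receptor tyrosine kinases and 13 of 22 members of the Ras-ERK cascade. The JNK and p38 cascade gave 16 of 19, the other MAP kinase phosphatases 4 of 11 and the other negative regulators 13 of 20. Dusp4, Dusp5, Dusp7 and Dusp10 were among the phosphatases not measured. Averaged over genotypes the median difference was 0.00 for the other phosphatases (Dusp8, Dusp9, Ptpn5 and Ptprr), 0.04 for the other negative regulators, among them Spred2, Nf1 and Socs3, and 0.08 for the Ras-ERK cascade, against 0.03 over all probe sets. It was -0.03 for the ligands, 0.04 for the receptors and -0.06 for the JNK and p38 cascade. Levels varied widely among the 63. Dok2, Cbl, Araf and Nf1 ranked at percentiles 8.15, 12.3, 14.4 and 19.1 of all probe sets, Socs3 at 37.6 and Spred2 at 92.6. Where a probe set reads low, the lack of a call does not show the lack of a response.

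Of the 7 lists, that of transcription factors and early genes responsive to ERK held all the calls. The lists were chosen from textbook knowledge with earlier results of these data known, so that this is a description and not a test. In mutants 7 of 18 measured genes rose and none fell, and in controls the same 7 rose. These were the AP-1 genes Fos (5.92 in mutants and 4.77 in controls), Fosb (5.72 and 5.89), Jun (1.07 and 0.71) and Junb (3.02 and 3.21), the zinc finger factors Egr1 (1.62 and 1.63) and Egr2 (4.76 and 4.75), and Ier2 (5.43 and 6.51). Averaged over genotypes, Ier3 (1.30, adjusted p = 0.00601) and the survival gene Mcl1 (0.37, adjusted p = 0.0375) passed too. The ETS factors Elk1, Elk3, Elk4, Etv4, Ets1 and Ets2 did not pass. Under saline Fos was lower in mutants (-1.16, adjusted p = 0.00809) and Ier2 higher (1.32, adjusted p = 0.0205). Fos and Ier2 were also the members of the list that passed for genotype averaged over treatments. The dimmer probe sets of Fos and Egr1, at percentiles 12.3 and 5.92, were not called for kainate. The dimmer probe set of Junb, at percentile 78.9, was called, with a difference of 4.97 in mutants and 4.90 in controls.

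**Figure D5:**
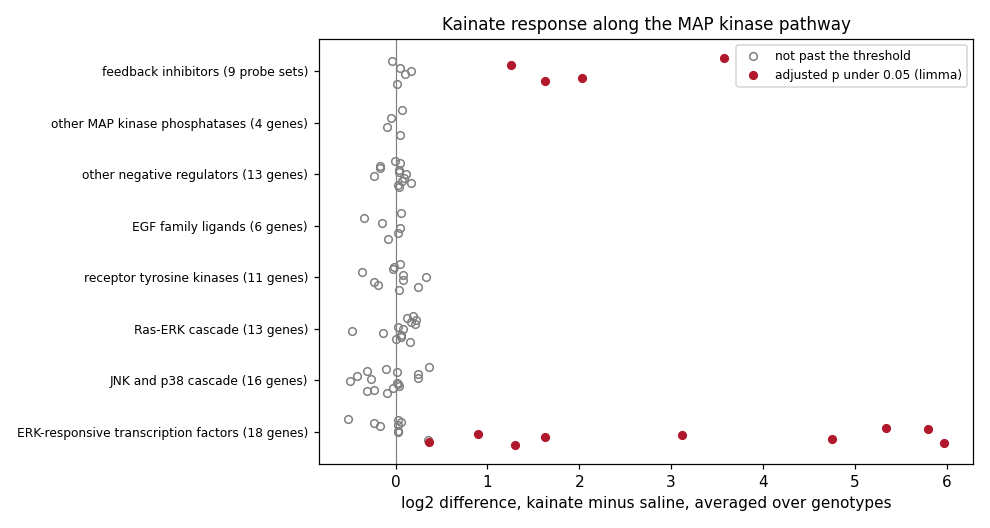
Log2 difference between kainate and saline, averaged over genotypes, for the 9 feedback inhibitor probe sets and for 81 other pathway genes in 7 lists (1 point per probe set or gene, spread vertically for display). Filled red points had an adjusted p under 0.05 in limma; they occur among the feedback inhibitors (4) and the ERK-responsive genes (9) and in none of the other 6 lists.

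Outside the feedback inhibitors themselves, the genes whose log2 levels over the 12 arrays were most like those of the called members were again immediate early genes. For Dusp1 they were the antiproliferative gene Btg2, the matricellular gene Ccn1 and Egr2 (Pearson's r 0.995 for each). For the brighter Errfi1 probe set they were Ccn1 (0.991), Btg2 (0.990) and Egr2 (0.988), and for the brighter Dusp6 probe set Junb (0.977, its dimmer probe set), Egr2 (0.973) and Ccn1 (0.968). Among the members, Dusp1 and the brighter probe sets of Errfi1 and Dusp6 correlated at 0.956 to 0.985. These values rest on the shared step between saline and kainate arrays: within groups the deviations of the 3 correlated at -0.40 to 0.16.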

How the data were processed

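The authors deposited log2 values made with GCRMA in R 2.4.1, per the submitters' processing notes. The GCRMA version, and whether the arrays were processed as 1 set, are not given in the sources used here. GCRMA corrects background by probe sequence, normalises quantiles and summarises each probe set. Of 12488 probe sets, 66 control probe sets were left out, and no filter on level was set. The platform annotation gave the symbols (10833 probe sets with 1 symbol, 396 with several, 1193 with none), and list genes were matched through RefSeq gene identifiers (10817 matched).

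The 4 group means were fitted over the 12 arrays together in limma 3.58.1 (R 4.3.3; 8 residual and 2.48 prior degrees of freedom). The fitting procedure was tested on simulated data, which enter no value given here. P-values are two-sided and adjusted by Benjamini-Hochberg over 12422 probe sets, with a threshold of 0.05. The number of arrays limits the precision. The labels call the replicates biological and name no batch. P-values set each difference against the spread between these pools, as moderated by limma over all probe sets. Variation between single animals was not measured. The members, lists and tests were chosen with earlier results of these data known. Every member is described; other pathway genes are named where they passed, or as examples from a list that did not; the 3 genes most like each called member, other members left out, are named by Pearson's r.

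Deviations of arrays with the same replicate number correlated at 0.408 to 0.625 between mutant kainate and mutant saline. They correlated at 0.315 to 0.745 between mutant kainate and control kainate, and at 0.583 to 0.848 between mutant saline and control saline. Between control kainate and control saline they ran from -0.0109 to 0.400. Arrays numbered 2 and 3 could correlate about as closely with each other. Examples are control saline 2 with mutant saline 3 (0.568) and mutant saline 2 with mutant kainate 3 (0.506). Control saline 1 with mutant saline 2 stood at -0.675. Such values set replicate 1 apart from 2 and 3, and do not show that the numbers pair arrays. The labels name no pairing.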

Additional observations from a re-analysis of the deposited data

How the results depend on the processing

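The count of called feedback inhibitor probe sets stayed at 3 for kainate in mutants and in controls and between 3 and 4 averaged over genotypes with each array left out, and the 126 refits of the 3 called probe sets in the 2 genotypes kept each call. For each of the 3 genotype effects it was 0, and 1 with array weights, the brighter Errfi1 probe set. Of 1275 refitted member values 7 lost and 9 gained a call. Those were the dimmer Errfi1 probe set for kainate, the brighter Dusp16 probe set averaged over genotypes with array weights (0.28, adjusted p = 0.0139), and the brighter Errfi1 probe set for genotype. No called value turned its sign, and 66 values that passed in neither fit did, the largest at 0.14. Signal over background was not measured here.

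Counts over all probe sets moved more, and the cause was not tested. For kainate in mutants, 37 became 64 with replicate 1 as a batch term, 94 with replicates 2 and 3 only and 1619 with array weights, and ran from 26 to 51 with each array left out. For kainate in controls, 41 became 146 with replicates 2 and 3 only, 22 with only the arrays compared and 380 with array weights (27, without control saline replicate 2, to 56 with each array left out). Averaged over genotypes, 117 became 245 with the replicate block, 333 with the batch term, 778 with replicates 2 and 3 only, 62 with median centring and 2036 with array weights (52, without control saline or mutant saline replicate 3, to 284, without control kainate replicate 1). The difference of the responses went from 0 to 8 with array weights, and to 5 without control kainate replicate 3 (0 without each other array). The genotype effect under kainate had 44, against 67 with the replicate block, 77 with the batch term, 10 with replicates 2 and 3 only, 5 with only the arrays compared, 20 with median centring, 99 with array weights and 29 of 8251 genes with probe sets averaged (12, without mutant kainate replicate 3, to 38). Under saline, 17 became 30 with the block, 38 with the batch term, 2 with replicates 2 and 3 only, 680 with array weights and 11 of the averaged genes (8, without mutant saline or control saline replicate 2, to 20). Averaged over treatments, 76 became 124 with the block, 140 with the batch term, 47 with replicates 2 and 3 only and 478 with array weights (41, without mutant saline replicate 2, to 103). Scaling also moved the split into higher and lower. With median centring it was 28 and 0 for kainate in controls (35 and 6 as deposited) and 51 and 11 averaged over genotypes (66 and 51). With quantile normalization it was 18 and 24 for genotype under kainate (27 and 17), 7 and 6 under saline (13 and 4) and 42 and 33 averaged (52 and 24), against 16 and 4, 10 and 2, and 42 and 9 with median centring. Fits on only the arrays compared were not run for the averaged effects and the difference, which use all 4 groups, and array weights used limma's gene-by-gene method because its default did not converge.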
